A study of Mus musculus with 8 samples.

Results

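SRC-3-deficient Th17 cells were compared with wild-type Th17 cells on 4 of the 8 mouse gene expression arrays of the series, 2 arrays per genotype, chosen by the genotype written in the sample titles. Each array held RNA of 1 sample of CD4 T cells, measured as 1 signal per probe set on a log2 scale, so a difference of 1 is a doubling. Per the labels, naive CD4 T cells of both genotypes were activated through CD3 and CD28 and differentiated with IL-1, IL-6 and IL-23, a mixture the labels call pathogenic Th17. The deficient cells came from mice labelled SRC-3 f/f and the controls from mice labelled SRC-3 WT. The labels name no Cre driver, age or number of mice. The titles call the samples biological replicates without saying whether they came from separate mice, so the p-values reflect no more than the spread among these samples. The other 4 arrays, RORγt-deficient and RORγt wild-type Th17 cells with 2 arrays each, served to estimate how much each gene varies between replicates. They also counted, with the SRC-3 arrays, in choosing which genes and probe sets were tested.

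SRC-3, encoded by Ncoa3, belongs to the p160 family of coactivators, with SRC-1 (Ncoa1) and SRC-2 (Ncoa2). These proteins bind nuclear receptors and other transcription factors at their target genes and bring in histone acetyltransferases and methyltransferases such as p300, CBP and CARM1. RORγt is the nuclear receptor that directs Th17 differentiation, the fate in which CD4 T cells make IL-17A and IL-17F, and it depends on such coactivators for transcription.

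The arrays carried markers of the labelled cells. All 8 CD4 T cell markers measured were above the median signal of the deposited table (7.85) on at least 1 of the 4 arrays, and their summed linear signal in deficient cells was 0.970 of that in wild-type cells. All 6 Th17 markers measured (Maf, Il17f, Il17a, Il23r, Rora and Ccr6) were also above it, with a summed ratio of 0.598. Of markers of other cells, 7 of 7 for NK cells, 9 of 10 for granulocytes, mast cells and basophils, 9 of 13 for macrophages and dendritic cells, 6 of 9 for B cells and 4 of 7 for CD8 T cells stayed below that median on all 4 arrays. So did 4 of 5 erythroid and platelet markers, but only 2 of 4 for gamma-delta T cells and 3 of 10 for stromal and endothelial cells. Vim was the brightest of the stromal and endothelial list. The Y-linked genes Eif2s3y, Uty and Kdm5d were high on deficient replicate 1 alone, where Eif2s3y read 11.16 beside 4.87, 4.91 and 4.59, and Xist read 7.10 there beside 13.60, 13.65 and 13.52. The deficient pair therefore mixed a male with a female pattern and the wild-type pair was female in pattern, so sex and the difference between the deficient replicates cannot be told apart.

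The test was run on 11128 genes, each represented by its brightest probe set with 1 gene symbol. Only probe sets that reached the median signal on at least 2 of the 8 arrays were considered. Within a pair the median SD was 0.07 in each genotype. A gene was called where limma's moderated test, fitted to all 8 arrays, gave a Benjamini-Hochberg adjusted p under 0.05. On 2 arrays against 2 an exact permutation test cannot go below 0.333. Of the genes tested 25 passed, which is 0.225% of them. The 21 that rose were 0.189% and the 4 that fell were 0.0359%, and 1394 genes (12.5%) had an unadjusted p under 0.05. After a new quantile normalization 16 rose and 6 fell, so that 72.7% of the calls were higher in deficient cells, where the deposited values gave 84.0%. The median log2 difference over all genes was 0.02, with 5% of genes below −0.18 and 5% above 0.26. Both deficient arrays lay outside the range of both wild-type arrays for 4144 genes (37.2%), 2557 of them higher (23.0%) and 1587 lower (14.3%) in deficient cells. These shares are the background for the counts given below.

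**Figure D1:**
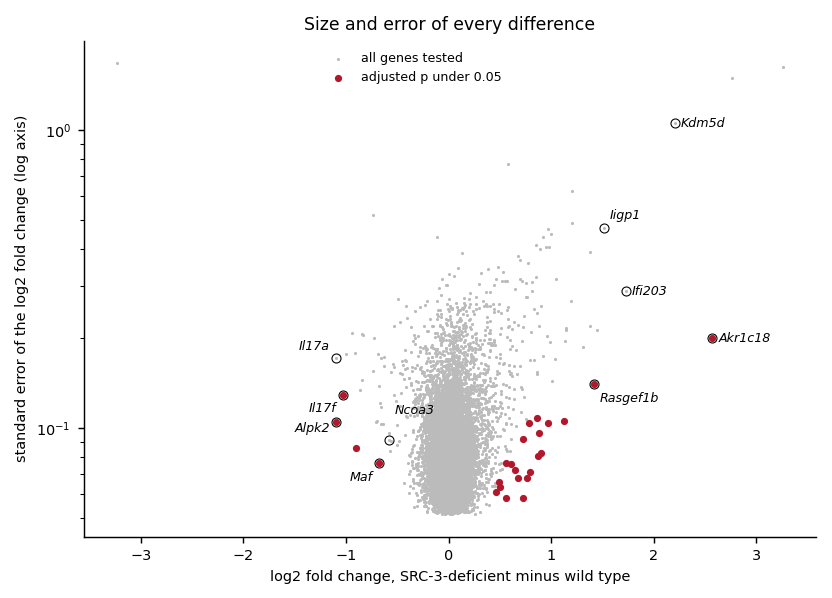
Log2 fold change of each of the 11128 genes (horizontal axis, SRC-3-deficient minus wild type) against its standard error (vertical axis, log scale), with the 25 genes past an adjusted p of 0.05 in red and open circles around labelled genes. The called genes lie at the lower edge of the cloud for their size: Ifi203, Iigp1 and the Y-linked Kdm5d differed more than most of them but had larger errors.

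Which arrays were used decided how many genes passed. Without wild-type replicate 2 none of the genes passed (limma, lowest adjusted p = 0.0507, with 1457 genes under 0.05 before adjustment). The count was 61 when wild-type replicate 1 was left out, 10 when deficient replicate 1 was, and 12 when either RORγt-deficient array was. With the 4 SRC-3 arrays alone it was 0, with 827 genes at an unadjusted p under 0.05. The groups of all 25 called genes were more than 0.4 apart, so leaving out an array could not change their direction. Without wild-type replicate 2 their adjusted p lay between 0.0507 and 0.106, and the log2 fold changes of the 24 named ones were 0.791 to 1.19 times those from all arrays. Akr1c18, Tigd2, Alpk2, Anxa4, Plagl1, Anxa3, Lratd1 and Tead1 lost their calls only without wild-type replicate 2. The other 17 lost theirs without at least 1 other array too. Only 4 of the 8 fits that left out an array changed the SRC-3 groups. Leaving out a RORγt array changed a gene's error alone, and the 2 arrays of a RORγt pair gave the same fit.

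The gene of SRC-3 itself had log2 signals of 11.15 and 10.97 in deficient cells beside 11.76 and 11.53 in wild-type cells. The groups did not overlap, with wild-type replicate 2 nearest to the deficient pair. Ncoa3 was lower by a log2 difference of −0.58 (SE 0.09, 95% interval −0.80 to −0.37), which missed the threshold (adjusted p = 0.0567). The labels do not name the deleted exons, so the position of these probes relative to it is unknown and the remaining signal is no measure of the protein.

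None of the other p160 family members or their partners passed. Ncoa1 read 10.35 and 10.29 in deficient cells beside 10.32 and 10.28 in wild-type cells, a log2 difference of 0.02 (95% interval −0.13 to 0.16). Ncoa2 read 10.80 and 10.63 beside 10.63 and 10.58, a difference of 0.11 (−0.05 to 0.27). For neither paralog did the interval reach the size of the Ncoa3 difference in either direction. The acetyltransferase genes Ep300 and Crebbp each differed by 0.08, with intervals of −0.11 to 0.26 and −0.08 to 0.24, and Carm1, the methyltransferase that joins p160 complexes, by −0.07 (−0.20 to 0.07). Med1, a Mediator subunit bound by nuclear receptors, differed by 0.03 (−0.10 to 0.16). Ppargc1b, a coactivator of metabolic genes, had the smallest p after Ncoa3, with a difference of −0.17 (adjusted p = 0.336). Of the 17 members tested, limma called 0 and 3 had an unadjusted p under 0.05. Among 13 corepressor genes it called 0, and 0 had an unadjusted p under 0.05. Kdm1a, a histone demethylase of corepressor complexes, had the smallest p there (difference 0.16, adjusted p = 0.404).

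The 4 genes that fell were a cytokine, a transcription factor, a kinase and an annexin. Il17f, which encodes the Th17 cytokine IL-17F, read 10.66 and 10.75 in deficient cells and 11.93 and 11.54 in wild-type cells. Maf, whose product c-Maf controls cytokine genes such as Il10 and Il4 in T helper cells, read 11.73 and 11.59 beside 12.32 and 12.36. In both, the groups were apart by more than either pair was spread. Il17f fell to 0.489 of its wild-type level (log2 fold change −1.03, SE 0.13, adjusted p = 0.0347) and Maf to 0.624 (−0.68, SE 0.08, adjusted p = 0.0198). Each of these calls was kept in only 1 of the 8 fits that left out an array. In bulk RNA, fewer cells making a transcript and less transcript per cell cannot be told apart.

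Alpk2, an atypical protein kinase gene, read 9.78 and 9.43 in deficient cells and 10.70 on both wild-type arrays. Anxa3, which encodes a calcium-dependent phospholipid-binding protein, read 8.79 and 8.54 beside 9.57 and 9.56. The wild-type pairs agreed to 0.01 in both genes and the deficient pairs were the more spread. Alpk2 fell to 0.467 of the wild-type level (log2 fold change −1.10, SE 0.11, adjusted p = 0.0119) and Anxa3 to 0.535 (−0.90, SE 0.09, adjusted p = 0.0119).

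Il17a, the neighbour of Il17f in the genome and the other signature Th17 cytokine, read 9.06 and 9.14 in deficient cells and 10.39 and 10.02 in wild-type cells. Its groups were as far apart as those of Il17f, and it missed the threshold (log2 difference −1.10, 95% interval −1.50 to −0.70, adjusted p = 0.0567). The promoters of the Il17f and Il17a genes, with that of Akr1c18, the called gene with the largest rise, are shown so that their start regions can be read side by side. Each line gives the 250 bases before the RefSeq start (GRCm38.p6), 5′ to 3′ on the gene's strand, Il17f at chr1:20784271-20784520 (minus strand), Il17a at chr1:20730655-20730904 (plus strand) and Akr1c18 at chr13:4150647-4150896 (minus strand). Capitals mark AGGTCA or its complement TGACCT, the core half-site that ROR proteins and many other nuclear receptors can bind.
Il17f: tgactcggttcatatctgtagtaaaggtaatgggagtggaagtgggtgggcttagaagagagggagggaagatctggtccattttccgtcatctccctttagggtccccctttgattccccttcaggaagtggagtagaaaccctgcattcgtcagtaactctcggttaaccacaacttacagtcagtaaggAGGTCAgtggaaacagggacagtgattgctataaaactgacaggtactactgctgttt
Il17a: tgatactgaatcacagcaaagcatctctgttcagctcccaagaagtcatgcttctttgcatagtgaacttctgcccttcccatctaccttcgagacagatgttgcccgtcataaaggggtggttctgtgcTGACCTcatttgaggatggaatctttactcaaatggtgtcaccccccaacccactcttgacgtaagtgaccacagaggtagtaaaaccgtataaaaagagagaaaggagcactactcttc
Akr1c18: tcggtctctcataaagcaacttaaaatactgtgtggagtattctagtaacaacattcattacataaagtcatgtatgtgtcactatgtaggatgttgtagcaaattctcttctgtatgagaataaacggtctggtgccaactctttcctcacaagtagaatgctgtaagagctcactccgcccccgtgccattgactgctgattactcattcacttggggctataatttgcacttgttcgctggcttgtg
The match began 58 bases before the start in Il17f and 120 bases before it in Il17a, and no match lay in the Akr1c18 window. In Akr1c18 a match began at base 28 after the start, outside the bases shown. Promoters were listed for 18 of the 25 called genes, 24 promoters in all, and 3 of these (12.5%) held the letters on either strand, beside 4607 of 32851 promoters (14.0%) in the whole table. In the longer window of 300 bases, which adds 50 after the start, 4 of 24 (16.7%) held them, beside 16.3% of all promoters and 12.4% of those of the genes tested. These shares were not tested, and a match describes letters, not a binding site.

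**Figure D2:**
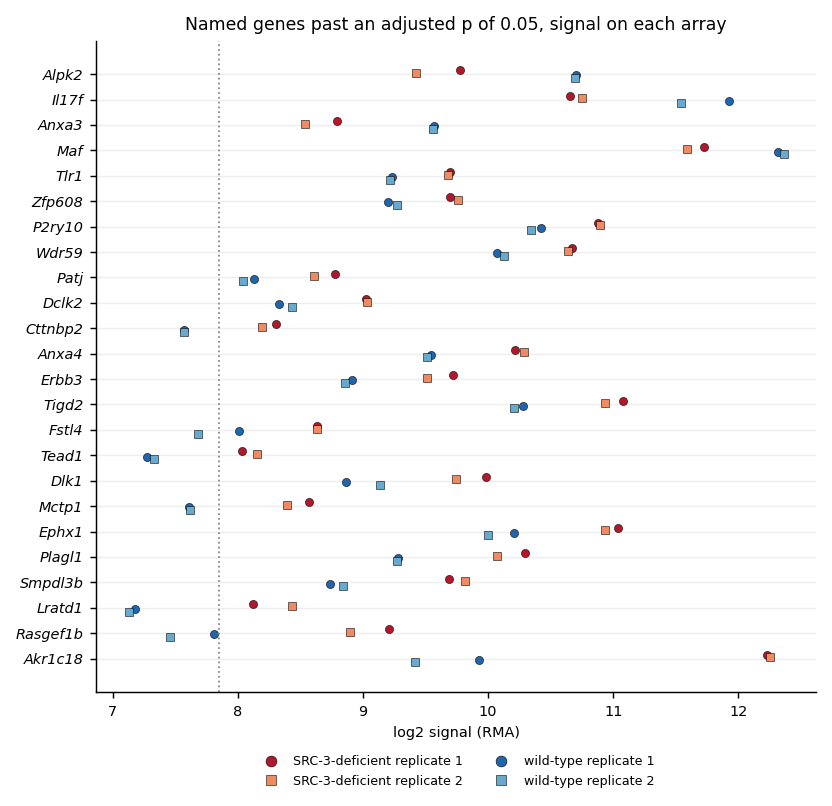
Log2 signal (horizontal axis) of each named gene past an adjusted p of 0.05 on the 4 arrays, deficient replicates in red shades and wild-type replicates in blue shades, with the filter value of 7.85 as a dotted line. In each gene both deficient arrays lie to one side of both wild-type arrays, to the left only for Maf, Anxa3, Il17f and Alpk2.

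Among the 21 genes that rose, 2 encode enzymes that process steroids and epoxides, and 1 a sphingomyelinase-like enzyme. Akr1c18, a hydroxysteroid dehydrogenase that inactivates progesterone, read 12.23 and 12.25 in deficient cells and 9.93 and 9.41 in wild-type cells. The deficient arrays were nearly equal, and wild-type replicate 2 was the lowest of the 4. This was the largest rise, 5.94-fold, or 2.57 on the log2 scale (SE 0.20, adjusted p = 0.0119). Ephx1, the microsomal epoxide hydrolase, read 11.04 and 10.93 beside 10.21 and 10.00 and rose 1.84-fold (SE 0.10 on the log2 scale, adjusted p = 0.0195). Smpdl3b, a membrane-anchored phosphodiesterase related to acid sphingomyelinase, read 9.69 and 9.82 beside 8.73 and 8.84 and rose 1.95-fold (adjusted p = 0.0184). In both enzyme genes each deficient array was above both wild-type arrays.

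The neighbours of Akr1c18 in its gene family were dim. Akr1c12, Akr1c13, Akr1c6 and Akr1c14 all read below the filter value on all 4 arrays, with log2 differences of 0.30, 0.43, 0.06 and −0.19 when fitted without the filter. Near-identical stretches among these genes can share probe signal, so part of a small difference in one may belong to another. Of the 14 genes of steroid, retinoid and epoxide metabolism tested, limma called 2 higher and 0 lower, and 5 had an unadjusted p under 0.05. Rdh10, which oxidises retinol, came next, at 9.59 and 9.70 beside 9.32 and 9.17 (difference 0.40, adjusted p = 0.0746). The list's median difference was 0.07, beside 0.02 over all genes. In the sphingolipid list of 23 genes Smpdl3b alone was called, and its median difference was 0.08.

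Genes of transcription regulators that rose were Plagl1, Tead1 and Zfp608. Plagl1, an imprinted zinc finger gene that restrains proliferation, read 10.29 and 10.07 in deficient cells and 9.28 and 9.27 in wild-type cells. Tead1, which YAP and TAZ, the effectors of Hippo signalling, use to bind DNA, read 8.03 and 8.16 beside 7.27 and 7.33. Both were higher on each deficient array than on either wild-type array. Plagl1 rose 1.87-fold and Tead1 1.73-fold (adjusted p = 0.0119 for each). The wild-type signal of Tead1 lay below the filter value, where a probe set responds weakly, so the size of its rise is uncertain. Of the 13 Hippo pathway genes tested Tead1 alone was called, and the paralogs Tead2 and Tead4 were dim, with differences of −0.09 and 0.02. Zfp608, a zinc finger gene, rose 1.40-fold (adjusted p = 0.0482), and Tigd2, a gene derived from a transposase, rose 1.70-fold (adjusted p = 0.0119).

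Dlk1, an imprinted membrane protein related to Notch ligands, read 9.98 and 9.74 in deficient cells and 8.87 and 9.13 in wild-type cells. Erbb3, a receptor of the EGF receptor family that binds neuregulins, read 9.72 and 9.51 beside 8.92 and 8.86. Neither gene overlapped between genotypes. Dlk1 rose 1.82-fold and Erbb3 1.65-fold (adjusted p = 0.0347 for each). P2ry10, an X-linked G protein-coupled receptor for lysophospholipids, rose 1.42-fold (adjusted p = 0.0347), and Tlr1, which pairs with TLR2 to sense bacterial lipopeptides, rose 1.38-fold (adjusted p = 0.0431). Tlr1 had the smallest rise of the called genes and close pairs, at 9.69 and 9.68 beside 9.23 and 9.22. Fstl4, a follistatin-like gene, rose 1.72-fold (adjusted p = 0.0431).

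Rasgef1b, which encodes an exchange factor acting on small GTPases of the Ras family, read 9.21 and 8.90 in deficient cells and 7.81 and 7.46 in wild-type cells. It had the largest rise after Akr1c18, 2.67-fold (log2 fold change 1.42, SE 0.14, adjusted p = 0.0134). Lratd1 read 8.12 and 8.43 beside 7.18 and 7.13 and rose 2.18-fold (adjusted p = 0.0119). Both genes were below the filter value in wild-type cells and above it in deficient cells. Mctp1, which encodes a membrane protein with calcium-binding C2 domains, rose 1.83-fold (adjusted p = 0.0119). Cttnbp2, a cortactin-binding protein gene, rose 1.60-fold (adjusted p = 0.0138), and Dclk2, a microtubule-associated kinase gene, rose 1.57-fold (adjusted p = 0.0198). Patj, a scaffold of cell polarity complexes, rose 1.52-fold (adjusted p = 0.0347). Wdr59, a subunit of the GATOR2 complex that relays amino acid levels to mTORC1, read 10.67 and 10.64 beside 10.07 and 10.12 and rose 1.47-fold (adjusted p = 0.0169). The remaining gene that rose has no established name. In all, 6 of the 25 called genes had a wild-type mean below the filter value and none had a deficient mean below it. Such genes passed the filter through other arrays, so their count is not evidence of a direction.

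Annexins went both ways. Anxa4, which binds phospholipids in a calcium-dependent manner as Anxa3 does, read 10.21 and 10.29 in deficient cells and 9.54 and 9.51 in wild-type cells. Anxa4 rose 1.65-fold (0.72 on the log2 scale, SE 0.06, adjusted p = 0.0119) where Anxa3 fell. Of the 7 annexins tested those were the only calls. Anxa2, Anxa5, Anxa6, Anxa7 and Anxa11 differed by 0.02, 0.14, 0.05, 0.15 and −0.02, and none of the 5 passed.

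The called genes lay on 13 chromosomes. They were 4 of 716 genes tested on chromosome 5, 3 of 531 on chromosome 6 and 1 of 317 on X, beside 0.225% of all genes. Without the X- and Y-linked genes 24 passed. That fit kept the array with the male pattern, so it does not set sex aside. Of the 25, 17 belonged to none of the 41 pathway lists described here.

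Ranking by size in place of error brought forward other genes. Of the 15 largest non-overlapping differences in each direction, 3 higher and 3 lower genes passed the test. Jaml, a junctional adhesion molecule of leukocytes, read 9.48 and 9.51 in deficient cells beside 8.40 and 7.70 in wild-type cells. Ms4a4b, a membrane-spanning protein gene of T cells, read 9.63 and 9.55 beside 8.56 and 7.99. In both genes wild-type replicate 2 was well below wild-type replicate 1. The differences were 1.44 for Jaml (95% interval 0.94 to 1.94, adjusted p = 0.0544) and 1.31 for Ms4a4b (0.87 to 1.75, adjusted p = 0.0516). Igf2bp3, an RNA-binding protein gene, read 8.93 and 9.71 beside 8.08 and 7.79, a difference of 1.38 (adjusted p = 0.0621). Mpzl2 and Igfbp7, an adhesion and a secreted protein gene, differed by 1.15 and 1.14 (adjusted p = 0.0864 and 0.0905). The Y-linked Kdm5d differed by 2.20 through deficient replicate 1 alone, at 9.60 beside 5.52, 5.39 and 5.32 (adjusted p = 0.44).

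Among the largest lower differences that missed the threshold were a costimulatory ligand, a chemokine receptor and an interferon-induced membrane protein. Cd86, a ligand of CD28, read 7.09 and 6.98 in deficient cells beside 8.11 and 7.95 in wild-type cells, a difference of −0.998 (adjusted p = 0.077). Ccr2, a receptor for the chemokine CCL2, read 8.73 and 9.17 beside 9.66 and 9.93, a difference of −0.84 (adjusted p = 0.0726). Cd86 was below the filter value in deficient cells. Ifitm1, a bright gene, read 11.83 and 11.67 beside 12.62 and 12.31, a difference of −0.71 (adjusted p = 0.0544). Asb2, the substrate-binding part of a ubiquitin ligase, differed by −0.87 (adjusted p = 0.0567) and Sytl3, a vesicle trafficking gene, by −0.70 (adjusted p = 0.0566). Meis2, Dcn, Myo1f, Glrx, Gimap7 and Klrb1f differed by −0.94, −0.85, −0.84, −0.74, −0.73 and −0.91, with adjusted p between 0.0968 and 0.202.

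Il17f was the one cytokine gene of the Th17 list to pass. Of 18 cytokine and chemokine genes tested, limma called 1 lower (Il17f) and 0 higher, and 6 had an unadjusted p under 0.05. The list held 14 members above 0 and its median difference was 0.18, which was −0.11 without wild-type replicate 2 and 0.32 without wild-type replicate 1. Il21, which supports B cell help and Th17 amplification, read 12.70 and 12.64 in deficient cells beside 12.95 and 12.83, a difference of −0.22 (95% interval −0.43 to −0.02, adjusted p = 0.363). Csf2, the GM-CSF gene, read 7.92 and 8.06 beside 7.70 and 7.67, a difference of 0.31 (−0.02 to 0.63, adjusted p = 0.418). The interval of Il21 excluded a fall of the size seen for Il17f. That of Csf2 did so only on these values. Its wild-type signal lay below the filter value, where a probe set responds weakly, so the size of its difference is uncertain. Il9 read 8.33 and 9.27 beside 7.45 and 7.77, a difference of 1.19 (0.57 to 1.81, adjusted p = 0.133), and its deficient replicates were far apart.

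Several inflammatory genes of that list overlapped between genotypes. Tnf, an inflammatory cytokine, read 12.02 and 11.57 beside 12.10 and 11.47, a difference of 0.01 (−0.53 to 0.55). Ccl3, a chemokine, differed by 0.03 (−0.56 to 0.62) and Ccl20, the ligand of CCR6, by 0.21 (−0.24 to 0.66). Lif, an IL-6 family cytokine, differed by −0.49 (−1.12 to 0.14), since wild-type replicate 1 was high at 10.73 beside 9.80 on replicate 2. In these genes the ranges of the genotypes overlapped. Ltb and Il13 did not overlap and differed by 0.21 (0.04 to 0.37, adjusted p = 0.296) and 0.20 (0.06 to 0.34, adjusted p = 0.252). Il2 differed by 0.39 (−0.06 to 0.84), Il4 by 0.16 (−0.22 to 0.54), Il24 by 0.37 (−0.30 to 1.03) and Tnfsf11 by 0.28 (−0.16 to 0.73). Il10 and Ifng, the genes of an anti-inflammatory cytokine and of interferon gamma, read below the filter value on all 4 arrays and differed by −0.12 and −0.11.

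**Figure D3:**
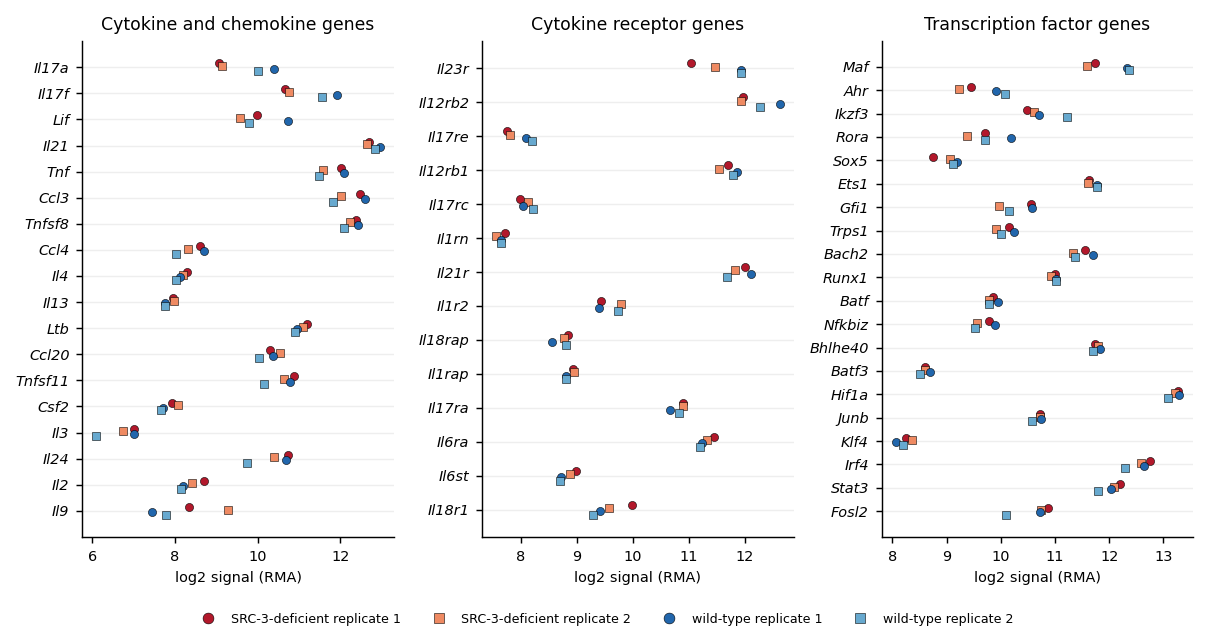
Log2 signal (horizontal axes) on the 4 arrays of the genes tested from 3 lists: 18 cytokine and chemokine genes, 14 receptor genes and 20 transcription factor genes, each ordered by log2 fold change from lowest to highest. Il17a, Il17f, Il23r, Maf and Ahr show both deficient arrays (red shades) left of both wild-type arrays (blue shades), while most genes in the middle of each panel overlap.

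Among 14 receptor genes for IL-1, IL-6, IL-23, IL-17 and related cytokines limma called 0, and 6 had an unadjusted p under 0.05. Il23r, the receptor chain for IL-23, read 11.03 and 11.47 in deficient cells beside 11.93 on both wild-type arrays, a difference of −0.68 (SE 0.14, adjusted p = 0.108). Il12rb2, the IL-12 receptor chain, read 11.98 and 11.93 beside 12.63 and 12.28, a difference of −0.50 (−0.74 to −0.26, adjusted p = 0.108). Il12rb1, the chain shared by both receptors, differed by −0.22 (−0.41 to −0.02, adjusted p = 0.349). All 3 chains were lower on both deficient arrays than on both wild-type arrays. The IL-6 receptor genes lay the other way: Il6ra differed by 0.17 (−0.03 to 0.37) and Il6st, which encodes its signalling chain gp130, by 0.22 (0.08 to 0.36, adjusted p = 0.214). Il17re, a receptor chain for IL-17C, differed by −0.36 (adjusted p = 0.123), Il18r1 by 0.43 (adjusted p = 0.243), Il1rap by 0.13 and Il21r by 0.02. The list's median difference was 0.03.

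Of 20 Th17 transcription factor genes limma called 1 lower (Maf) and 0 higher, and 7 had an unadjusted p under 0.05. Ahr, the aryl hydrocarbon receptor, which promotes Il22 and Il17 expression, read 9.46 and 9.23 beside 9.92 and 10.08, a difference of −0.66 (95% interval −0.90 to −0.42, adjusted p = 0.0567). Rora, a ROR-family receptor that acts beside RORγt, read 9.72 and 9.38 beside 10.19 and 9.72, a difference of −0.40 (−0.78 to −0.03, adjusted p = 0.36). For Rora deficient replicate 1 and wild-type replicate 2 nearly met, and for Ahr the groups were apart. The factors that bind early in Th17 differentiation differed little: Batf by −0.05 (−0.23 to 0.13), Irf4 by 0.20 (−0.06 to 0.47), Stat3 by 0.22 (0.02 to 0.42, adjusted p = 0.349), Hif1a by 0.04 (−0.13 to 0.22) and Runx1 by −0.05 (−0.18 to 0.08). Ikzf3 and Sox5 differed by −0.41 and −0.24, and Fosl2, a repressor of Th17 genes, by 0.40 (−0.01 to 0.80). Of the 7 genes tested of the aryl hydrocarbon receptor and its targets 0 were called and 1 had an unadjusted p under 0.05. Its targets Cyp1b1 and Tiparp differed by −0.28 and −0.14.

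Genes known to depend on RORγt, other than cytokines, numbered 18 tested, with 0 called by limma, 6 at an unadjusted p under 0.05, 8 non-overlapping lower and 2 non-overlapping higher. The 8 lower members are 8 of 18, where 14.3% of all genes were lower without overlap, and the list's median difference was 0.00 all the same. Ltb4r1, the leukotriene B4 receptor gene, read 8.71 and 9.18 in deficient cells beside 9.43 and 9.72, a difference of −0.63 (adjusted p = 0.203). Gpr65, a proton-sensing receptor gene, read 11.13 and 10.95 beside 11.56 and 11.19, a difference of −0.34 (adjusted p = 0.327). Dab2, an endocytic adaptor gene, differed by −0.43 (adjusted p = 0.296). For Ltb4r1 deficient replicate 1 was the lowest array and for Gpr65 it was deficient replicate 2.

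Genes that separate pathogenic from non-pathogenic Th17 cells included 1 call, Maf. Of 19 pathogenic-signature genes limma called 0 and 7 had an unadjusted p under 0.05. Of the 19, 8 were non-overlapping lower and 3 higher, beside 14.3% and 23.0% of all genes. The signature's median difference was −0.07 (−0.21 without wild-type replicate 2 and −0.01 without wild-type replicate 1). Sgk1, a salt-sensing kinase that stabilises the Th17 fate, read 9.012 and 9.001 beside 9.27 and 9.45, a difference of −0.36 (adjusted p = 0.155). Tbx21, the gene of T-bet, read 8.99 and 8.73 beside 9.62 and 9.17, a difference of −0.53 (adjusted p = 0.243), and Il7r differed by −0.24 (adjusted p = 0.16). Of 8 non-pathogenic-signature genes Maf was called, 6 had an unadjusted p under 0.05, and the median difference was −0.21 (−0.13 without wild-type replicate 2). Cxcr3, a chemokine receptor in that list, differed by −0.44 (adjusted p = 0.332).

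Regulatory T cell genes lay higher in deficient cells without any passing the test. Of 17 tested limma called 0 and 9 had an unadjusted p under 0.05. Where 23.0% of all genes were higher and 14.3% lower without overlap, 11 of the 17 were higher and 1 lower. Their median difference was 0.26, and it was 0.16 without wild-type replicate 2 and 0.39 without wild-type replicate 1. Gpr83, a receptor gene enriched in regulatory T cells, read 10.33 and 9.98 beside 9.26 and 9.04, a difference of 1.003 (95% interval 0.67 to 1.34, adjusted p = 0.0516). Nrp1, the gene of neuropilin-1, read 9.26 and 8.99 beside 8.72 and 7.86, a difference of 0.84 (0.25 to 1.42, adjusted p = 0.243). Wild-type replicate 2 was the lowest array in both. Ikzf4, the gene of Eos, differed by 0.39, Socs2 by 0.43, Cd83 by 0.29 and Ikzf2, the gene of Helios, by 0.19, with adjusted p between 0.162 and 0.228. Foxp3, which defines regulatory T cells, stayed below the filter value on all 4 arrays, at 7.66 and 7.55 beside 7.60 and 7.60.

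Markers of the other helper fates did not pass. Of 9 Th2 genes limma called 0 and 3 had an unadjusted p under 0.05. Gata3, the master regulator of Th2 cells, read 9.20 and 9.14 beside 8.56 and 8.19, a difference of 0.80 (95% interval 0.40 to 1.19, adjusted p = 0.121). Of 12 Th1 genes limma called 0 and 6 had an unadjusted p under 0.05. Ifngr2, a chain of the interferon gamma receptor, differed by 0.36 (adjusted p = 0.132), and Hlx, a homeobox partner of T-bet, by −0.31 (adjusted p = 0.247). Of 11 follicular helper genes limma called 0 and 4 had an unadjusted p under 0.05. Tox, a chromatin protein of developing and exhausted T cells, read 9.59 on both deficient arrays beside 8.97 and 9.01, a difference of 0.60 (0.41 to 0.80, adjusted p = 0.0516). Gata3 and Tox were each higher on both deficient arrays than on both wild-type arrays, whereas Bcl6, the follicular helper regulator, differed by −0.25 (−0.47 to −0.02).

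Homing and adhesion genes were split. Of 12 genes tested from the chemokine receptor list, which also held the lipid receptor gene S1pr1, limma called 0. Of these, 5 had an unadjusted p under 0.05, and the list's median difference was 0.13. Besides Ccr2, S1pr1, which guides exit from lymph nodes, differed by 0.27 (adjusted p = 0.283) and Ccr4, a skin-homing receptor, by 0.20 (adjusted p = 0.32). Of 16 integrin and adhesion genes limma called 0 and 5 had an unadjusted p under 0.05. Cd24a, a glycosylated surface protein, read 10.39 and 10.52 beside 11.11 and 10.93, a difference of −0.57 (adjusted p = 0.0544). Itga6, the integrin alpha 6 chain, read 11.30 and 11.19 beside 10.92 and 10.80, a difference of 0.39 (adjusted p = 0.0746), and Icam1 differed by 0.34 (adjusted p = 0.131). Of 11 genes of naive and recirculating cells limma called 0 and 3 had an unadjusted p under 0.05, and Ccr7, which directs T cells to lymph nodes, differed by 0.11 (−0.04 to 0.26).

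Other nuclear receptors, the class of factor that SRC-3 assists, were not called. Of 20 tested limma called 0 and 4 had an unadjusted p under 0.05, and the median difference was 0.04. Rarg, a retinoic acid receptor, read 9.77 and 9.72 beside 9.47 on both wild-type arrays, a difference of 0.27 (adjusted p = 0.141). Nr4a2, an orphan receptor induced by activation, read 10.72 and 10.58 beside 10.45 and 9.71, a difference of 0.57 (adjusted p = 0.316), where wild-type replicate 2 was low. Of 13 circadian clock genes limma called 0 and 2 had an unadjusted p under 0.05. Dbp and Per1, both driven by the CLOCK and BMAL1 pair, differed by 0.33 and 0.28 (adjusted p = 0.28 and 0.384), and Nr1d1, the gene of REV-ERBα, by −0.07.

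Signalling genes showed small differences with a few exceptions. Of 16 TGF-β and Smad genes limma called 0 and 4 had an unadjusted p under 0.05. Tgfbr1, the TGF-β type I receptor, read 10.12 and 9.80 in deficient cells beside 9.35 on both wild-type arrays, a difference of 0.61 (95% interval 0.37 to 0.85, adjusted p = 0.0726). Smad3, which carries its signal to the nucleus, read 10.97 and 10.81 beside 11.25 and 11.13, a difference of −0.30 (−0.48 to −0.11, adjusted p = 0.188), and Tgfbr3, the co-receptor, differed by −0.32 (adjusted p = 0.15). The receptor was thus higher, and its co-receptor and Smad3 lower, on both deficient arrays, with none past the threshold. Of 19 JAK, STAT and SOCS genes limma called 0, 2 had an unadjusted p under 0.05, and the median difference was 0.10. Of 7 IL-2 and common gamma chain receptor genes limma called 0 and 1 had an unadjusted p under 0.05, and Il2ra, the IL-2 receptor alpha chain, differed by 0.04 (−0.10 to 0.18).

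For T cell receptor signalling limma called 0 of 28 genes and 1 had an unadjusted p under 0.05. Dgkz, a diacylglycerol kinase that dampens receptor signals, differed by 0.18 (adjusted p = 0.268). Of 19 costimulatory and checkpoint receptors limma called 0 and 4 had an unadjusted p under 0.05. Slamf6 differed by 0.37 (adjusted p = 0.16) and Tigit, an inhibitory receptor, by −0.26 (adjusted p = 0.304). Of 24 immediate early and MAPK feedback genes limma called 0 and 4 had an unadjusted p under 0.05. Atf3, a stress-induced factor, read 10.11 and 10.38 beside 9.78 and 9.68, a difference of 0.51 (adjusted p = 0.131), and Dusp4, a MAPK phosphatase, differed by 0.47 (adjusted p = 0.133). Of 20 IL-1 and NF-κB response genes limma called 0 and 6 had an unadjusted p under 0.05. Their median difference was 0.14, and 16 of 20 were above 0. Nfkb2, Relb and Nfkbie, which encode NF-κB subunits and an inhibitor, differed by 0.27, 0.22 and 0.21.

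All 32 tested genes of the type I interferon list read higher in deficient cells on average, and the replicates of each genotype were far apart. Ifitm1, interferon-induced but outside the list, was lower (difference −0.71, adjusted p = 0.0544). Of 32 genes limma called 0 and 14 had an unadjusted p under 0.05. The list held 21 non-overlapping higher and 0 lower genes, beside 23.0% and 14.3% of all genes. The median difference was 0.60, between 0.24 without wild-type replicate 2 and 0.94 without wild-type replicate 1. Relative to the mean of the 4 arrays the list stood at 0.53 and 0.13 in deficient cells and 0.01 and −0.67 in wild-type cells. Replicate 1 was above replicate 2 in both genotypes, in 32 genes for deficient cells and in 31 for wild-type cells. Deficient replicate 1, the array with the male pattern, was the highest in all 32 and wild-type replicate 2 the lowest in 31. The part of the sex pattern and of the replicate number in this list was not tested.

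Single interferon genes show this. Ifi203, a PYHIN-family DNA sensor gene, read 9.48 and 8.94 in deficient cells beside 7.58 and 7.39, a difference of 1.72 (95% interval 1.05 to 2.40, adjusted p = 0.0726), and here the wild-type arrays were close. Ifit3, an antiviral effector, read 9.34 and 8.91 beside 8.55 and 7.29, a difference of 1.20 (0.06 to 2.34, adjusted p = 0.374). Samd9l, an interferon-induced antiviral gene, read 8.77 and 8.02 beside 7.54 and 6.51, a difference of 1.38 (adjusted p = 0.214). In Ifit3 and Samd9l the wild-type replicates were more than 1 apart. Oasl2 differed by 1.05 and Zbp1, a sensor of Z-form nucleic acids, by 0.62 (adjusted p = 0.247 and 0.155). Of 10 interferon-induced GTPase and PYHIN genes, a list that shares Ifi203 with the type I interferon list, limma called 0. An unadjusted p under 0.05 was found in 7. Beside 23.0% of all genes higher and 14.3% lower without overlap, 7 of the 10 were higher and 1 lower. The lower one, Aim2, a sensor of DNA in the cytosol, read 9.29 and 9.32 beside 9.64 and 9.45 (difference −0.24, adjusted p = 0.266). Gbp5, a guanylate-binding protein gene, read 11.08 and 11.11 beside 10.65 and 10.36, a difference of 0.59 (0.34 to 0.84, adjusted p = 0.0829), and Iigp1, an immunity-related GTPase gene, read 9.83 and 9.14 beside 8.73 and 7.21 (difference 1.51, adjusted p = 0.26).

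**Figure D4:**
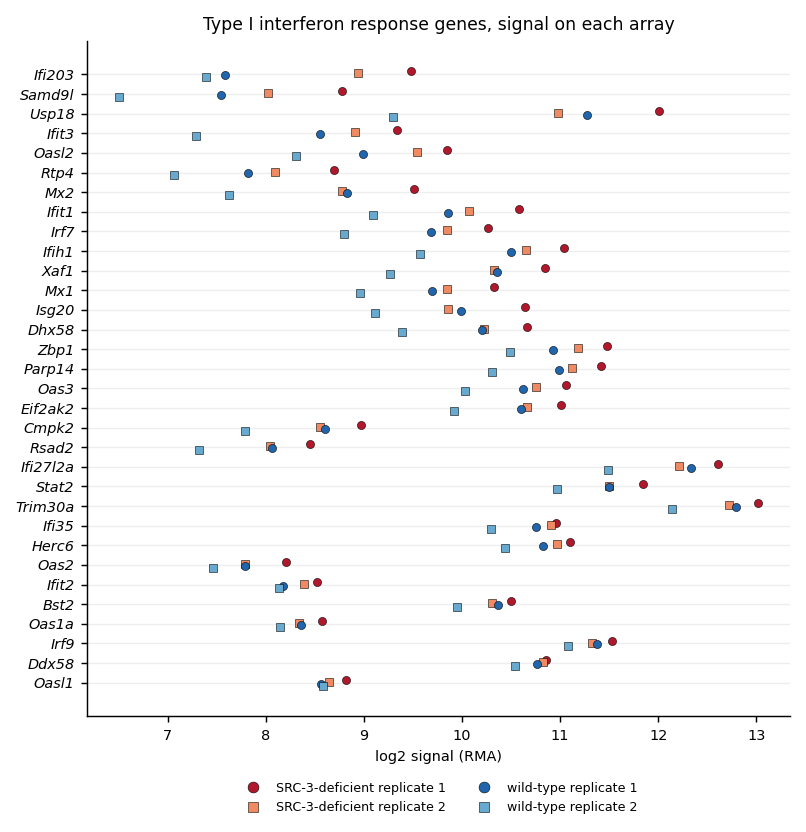
Log2 signal (horizontal axis) of the 32 type I interferon response genes tested on the 4 arrays, ordered by log2 fold change from highest to lowest. Deficient replicate 1 is the rightmost array in all 32 genes and wild-type replicate 2 the leftmost in 31, with the other 2 arrays between them.

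Of 20 cholesterol synthesis genes limma called 0 and 9 had an unadjusted p under 0.05. Set against 14.3% of all genes lower and 23.0% higher without overlap, 11 of the 20 were lower and 1 higher. Their median difference was −0.16, with −0.09 without deficient replicate 2, which was the lowest array in 14 of them. Lss, lanosterol synthase, read 11.34 and 10.97 beside 11.68 and 11.45, a difference of −0.41 (95% interval −0.73 to −0.09, adjusted p = 0.292). Nsdhl, a later enzyme of the pathway, differed by −0.24 (−0.38 to −0.10, adjusted p = 0.171), and Insig1, the sterol-regulated brake on SREBP, by −0.31 (adjusted p = 0.337). Of 15 genes of fatty acid synthesis and sterol export limma called 0 and 7 had an unadjusted p under 0.05. Fasn, fatty acid synthase, read 11.95 and 11.94 beside 12.26 and 12.25, a difference of −0.31 (adjusted p = 0.119), and Elovl6, which elongates its product, differed by −0.35 (adjusted p = 0.15).

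Cpt1a, which admits fatty acids to mitochondria for oxidation, read 11.51 and 11.49 beside 11.06 and 11.12, a difference of 0.41 (95% interval 0.24 to 0.58, adjusted p = 0.0746). Abcg1, a sterol exporter, read 10.02 and 10.01 beside 9.68 and 9.56, a difference of 0.39 (0.23 to 0.55, adjusted p = 0.0726). Elovl5, an elongase of polyunsaturated fatty acids, differed by 0.35 (adjusted p = 0.0726). In all 3 genes both deficient arrays were above both wild-type arrays. Of 21 glycolysis and hypoxia genes limma called 0 and 3 had an unadjusted p under 0.05, with Slc2a1, the glucose transporter GLUT1, at 0.24 (adjusted p = 0.313) and Bnip3, a hypoxia-induced mitophagy gene, at 0.27 (adjusted p = 0.199). Of 35 nuclear-encoded respiratory chain genes limma called 0 and 1 had an unadjusted p under 0.05, and their median difference was 0.06.

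Cell cycle genes varied more between replicates than between genotypes. In all 29 mitosis and spindle genes replicate 2 was above replicate 1 within each genotype. The list stood at −0.18 and 0.28 in deficient cells and −0.30 and 0.21 in wild-type cells. Limma called 0 of them and 0 had an unadjusted p under 0.05, and the median difference of 0.08 ran from −0.16 without wild-type replicate 1 to 0.35 without wild-type replicate 2. Of 31 DNA replication and G1/S genes limma called 0 and 4 had an unadjusted p under 0.05. Beside 14.3% of all genes lower and 23.0% higher without overlap, 7 of the 31 were lower and 0 higher. Their median difference was −0.10, and it was 0.06 when deficient replicate 1 was left out, 0.03 when wild-type replicate 2 was, and −0.23 when either of the others was. E2f1, an activator of S-phase genes and a known partner of SRC-3, read 10.00 and 10.09 beside 10.40 and 10.44, a difference of −0.37 (95% interval −0.52 to −0.22, adjusted p = 0.0726). Mcm3, a subunit of the replicative helicase, read 10.99 and 11.17 beside 11.33 and 11.64, a difference of −0.40 (adjusted p = 0.192).

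No survival, stress or chromatin gene passed. Of 15 Bcl-2 family genes limma called 0 and 4 had an unadjusted p under 0.05. Pmaip1, the gene of the death-promoting protein NOXA, read 9.83 and 9.78 beside 9.40 and 9.51, a difference of 0.35 (95% interval 0.21 to 0.50, adjusted p = 0.077). Bcl2l11, the gene of BIM, also death-promoting, read 9.61 and 9.56 beside 9.97 and 9.89, a difference of −0.34 (−0.50 to −0.19, adjusted p = 0.0998). These 2 genes lay in opposite directions. Of 22 genes of the ATF4 response limma called 0 and 2 had an unadjusted p under 0.05. Of 17 genes of the unfolded protein and heat shock response limma called 0 and 0 had an unadjusted p under 0.05. Of 27 histone modifying enzymes limma called 0 and 0 had an unadjusted p under 0.05, with Tet2, a DNA demethylation enzyme, at 0.21 (adjusted p = 0.404).

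**Figure D5:**
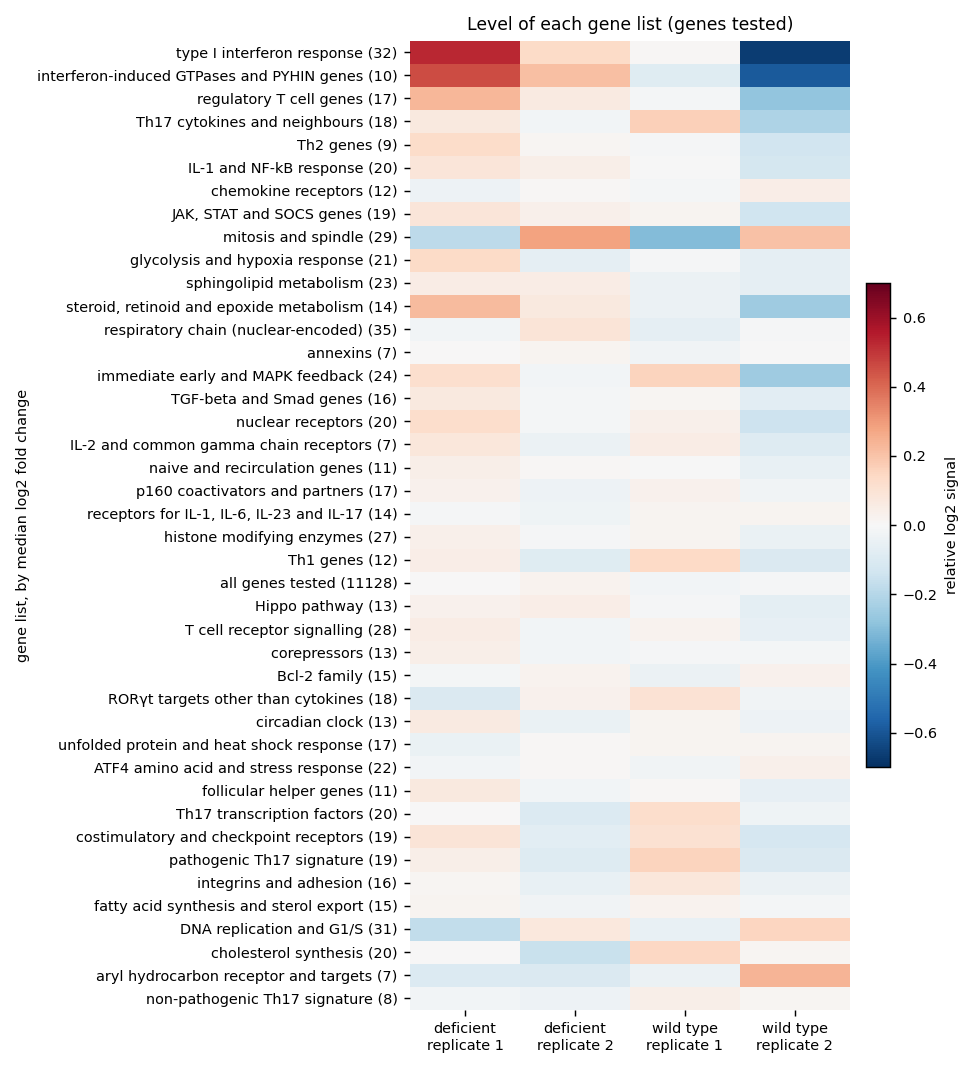
Mean log2 signal of the tested genes of each list on each of the 4 arrays, relative to the mean of the 4 arrays (colour, red higher and blue lower), with the number of genes tested in brackets and lists ordered by median log2 fold change from highest to lowest. The interferon lists run from red on deficient replicate 1 to blue on wild-type replicate 2, and the mitosis list separates replicate 1 from replicate 2 in both genotypes.

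Over the 41 pathway lists the median difference was within 0.1 of 0 in 30, above 0.1 in 8 and below −0.1 in 3. Only 7 lists held a called gene.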

How the data were processed

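Total RNA of Th17 cells, extracted with Trizol, was hybridised to 1-colour Affymetrix Mouse Gene 1.0 ST arrays. The deposited log2 signals were made by the authors with RMA (Affymetrix Expression Console, version not given), per the submitters' processing notes, and they were used without a new normalization. Of 35556 probe sets, the 21789 with 1 gene symbol were used, and the brightest that reached the median deposited value (7.85) on at least 2 arrays stood for its gene, leaving 11128 genes. Group means were fitted to the 8 arrays with limma 3.58.1 (lmFit, eBayes) in R 4.3.3, with 4 residual and 3.53 prior degrees of freedom. Tests were two-sided with Benjamini-Hochberg adjustment over all genes, and intervals cover 95%. RMA shrinks differences of dim probe sets, and the number of arrays limits precision. The fit was tested on simulated data. The simulated noise was independent on each array, without the replicate and sex differences of these arrays.

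The members and gene lists were chosen with earlier results of these data known. Named genes are Ncoa3, all called genes, the 15 largest non-overlapping differences per direction, called members and up to 5 others with the smallest p in each list, and all members of 4 Th17 and coactivator lists, of which the text gives a selection. Nrp1, Foxp3, Il10, Ifng, the sex-linked genes and the dim relatives of Akr1c18 and Tead1 were named after their values were seen, the dim ones fitted without the filter. Genes without an established name were counted only. Promoters came from RefSeq (GRCm38.p6). Alternatives were other normalizations, filters, probe set rules, fits, thresholds and leaving out each array. Some genes are not reported here.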

Additional observations from a re-analysis of the deposited data

How the results depend on the processing

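The count of called genes (25) was not stable to the choice of arrays or of the variance model. It ran from 0 to 61 when 1 array was left out, the ends being without wild-type replicate 2 and without wild-type replicate 1. It was 14 with a stricter filter at 9.78, 10 with array weights, 47 with an intensity trend and robust prior, 129 at an adjusted p of 0.10, 0 at 0.01 (1394 genes at an unadjusted p under 0.05) and 0 with the 4 SRC-3 arrays alone (827). With the replicate number as a block within each experiment it was 301, all 25 among them, and with a block shared by both experiments 29, 19 of them shared. The labels do not say what the replicate number stands for. The differences between replicates of the 2 genotypes correlated with r = 0.54 across genes, and 2 pairs cannot settle whether they were paired. New quantile normalization gave 22, arrays shifted to a common median 23, fitting without a filter 31, the mean of probe sets 25 and leaving out X- and Y-linked genes 24. Of 5131 comparisons of the 290 named genes with an alternative, 146 lost a call and 110 gained one. Only the 24 named genes with a call could lose one, so the 5131 are not the base for the 146 losses. In 115 comparisons, of 64 genes, the sign differed, and 0 of these genes were called. Leaving out an array could not change the sign of a called gene, since its groups were more than 0.4 apart. Of the values without a call, 30 moved by more than the spread between replicates. Of 738 list medians 60 moved by more than the spread between replicates. Leaving out a RORγt array, the 4 SRC-3 arrays alone, array weights, the trend and the blocks left the log2 differences unchanged. In those settings no value or median could move, yet they count among the 5131 and the 738.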
